A study of Mus musculus with 48 samples.

Results

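Short clonotypes were the BCR heavy-chain clonotypes whose HCDR3, the third complementarity-determining region at the join of the V, D and J genes, held 7 amino acid residues or fewer. A clonotype was an IGHV gene, an IGHJ gene and an HCDR3 amino acid sequence, and the genes were read from the deposited calls before the allele number. Of 3182102 clonotypes in 48 libraries, 200944 were short. The lacrimal gland (LG) held 2564 short clonotypes of 37638, or 6.81%, and the spleen 199604 of 3154791, or 6.33%. Both tissues held 1224 of them, which were 47.7% of the short LG clonotypes and 0.613% of the short spleen clonotypes.

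The LG and spleen of the same 24 C57BL/6 (B6) mice were sequenced from total RNA. NOD-FMT mice (n = 10) were gavaged daily for weeks with fecal supernatant of NOD.B10.H2b mice, a strain with autoimmune dry eye disease, and PBS-T mice (n = 9) received PBS on the same schedule. Both groups had shared feces between cages and had drunk an antibiotic cocktail (ampicillin, vancomycin and metronidazole) before gavage, which the methods start in mice a few weeks old, while the NC mice (n = 5) were untreated B6 mice that served as BCR controls and whose age is not given in the sources used here. The donor feces were pooled, so the recipients share their inoculum. NOD-FMT was thus compared with gavage of PBS after antibiotics, and neither gavaged group differs from NC by the gavage alone.

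An HCDR3 is built when a V, a D and a J gene are joined, with bases trimmed from each end and untemplated bases added between them. The D segment and the added bases carry most of the diversity of the antibody heavy chain, so a short HCDR3 has few positions left to vary. IgA is the antibody class secreted in tears and at other mucosal surfaces, and plasma cells of the LG are a source of it.

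The germline J genes are shown because their lengths set how much of a short HCDR3 they can fill. Capitals mark the bases that belong to the HCDR3, which ends just before the conserved tryptophan codon. They are the GENCODE M21 sequences on GRCm38, minus strand, at chr12:113429781-113429833 (IGHJ1), chr12:113429468-113429567 (IGHJ2), chr12:113429085-113429132 (IGHJ3) and chr12:113428514-113428567 (IGHJ4), where the IGHJ2 entry runs past the coding bases printed.
IGHJ1: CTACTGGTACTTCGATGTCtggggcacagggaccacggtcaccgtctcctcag
IGHJ2: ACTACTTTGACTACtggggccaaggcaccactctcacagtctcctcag
IGHJ3: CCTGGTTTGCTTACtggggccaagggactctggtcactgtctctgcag
IGHJ4: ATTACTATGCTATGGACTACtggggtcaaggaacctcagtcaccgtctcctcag
Untrimmed IGHJ1 and IGHJ4 bring 19 and 20 HCDR3 bases, and IGHJ2 and IGHJ3 bring 14 each. An HCDR3 of 7 residues has 21 bases in all.

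The 3' ends of 4 V genes are shown because IGHV6-3 and IGHV6-6 had the largest excess in short clonotypes in both tissues, IGHV1-55 differed in sign between the tissues and IGHV8-8 was lower in short clonotypes of all 24 mice in both. Capitals mark the bases after the conserved cysteine codon, which fall in the HCDR3. All lie on the minus strand of GRCm38, at chr12:114391712-114392169 (IGHV6-3), chr12:114434788-114435244 (IGHV6-6), chr12:115208095-115208591 (IGHV1-55) and chr12:115294062-115294504 (IGHV8-8).
IGHV6-3: tgaagacactggaatttattactgcACAGG
IGHV6-6: gaagacactggcatttattactgtACCAGG
IGHV1-55: gaggactctgcggtctattactgtGCAAGA
IGHV8-8: atactgccacatactactgtGCTCGAATAG
IGHV8-8 brings 10 germline bases to the HCDR3, IGHV6-6 and IGHV1-55 bring 6 and IGHV6-3 brings 5.

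Rearranged HCDR3 sequences of short clonotypes are shown with capitals for the bases that the deposited alignment assigns to neither the V nor the J gene. The first 3 encode the same clonotype, IGHV6-3 IGHJ3 TGDGFAY, which was the short LG clonotype held by most mice.
TGDGFAY, form in 6 mice: acagGCGACGggtttgcttac
TGDGFAY, form in 4 mice: acagGGGACGggtttgcttac
TGDGFAY, form in 2 mice: acagGCGATGggtttgcttac
TRYFDV, IGHV6-3 IGHJ1: acAAggtacttcgatgtc
TTGFAY, IGHV6-6 IGHJ3: accACTGggtttgcttac
ARGAY, IGHV1-26 IGHJ3: gcaagAGGGgcttac
ARSGGDY, IGHV1-63 IGHJ2: gcaagaTCGGGGGGAgactac
The J part ggtttgcttac occurs in all 3 forms of TGDGFAY and encodes its last residues, while the middle bases differ between forms.

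Once sequences shared by over 2 mice in the same tissue were taken out, an LG library held 40105 to 264365 counts and a spleen library 71859 to 2032338, a count being the consensus (1 sequence) of reads with a common molecular tag. LG libraries held 560 to 2504 clonotypes except that of PBS-T mouse 5, with 17213. That library alone held 852 short clonotypes, so LG totals over clonotypes lean on it, and values without it are given where it bears on a result. The file names mark 11 LG libraries as merged (6 NOD-FMT, 4 PBS-T and 1 NC), without saying of what. The widest 95% Wilson interval of a share of counts was that of the LG of PBS-T mouse 6, 33.5% to 34.3%, and a count of 0 allows up to 0.00748% of the counts of an LG library. Intervals and limits cover counting error only.

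The mean share of clonotypes was 8.02% ± 2.58 (SD, n = 24) in the LG and 7.94% ± 1.08 in the spleen, and the LG exceeded the spleen in 10 of 24 mice. Their mean share of counts was 9.73% ± 8.05 in the LG and 9.65% ± 3.38 in the spleen. Most short HCDR3s sat at the upper end of the range. Distinct LG clonotypes numbered 1395 with 7 residues, 822 with 6, 303 with 5, 32 with 4 and 4 each with 3, 2 and 1. In the spleen they numbered 105334, 57993, 32695, 3397, 96, 55 and 34. The median HCDR3 of all clonotypes had 12 residues in both tissues. Just inside the limit, 6 and 7 residues took a mean of 2.62% and 4.25% of LG clonotypes and 2.33% and 4.00% of spleen clonotypes. Just outside it, 8 and 9 residues took 4.58% and 7.81% in the LG and 5.63% and 8.04% in the spleen.

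In the LG, the share of clonotypes that were short was highest in NOD-FMT mice and lowest in NC mice. NOD-FMT mice ranged from 6.01% to 16.9% with a median of 9.02%, and PBS-T mice from 4.95% to 10.9% with a median of 7.35%. The 5 NC mice had 5.50%, 5.52%, 6.61%, 6.58% and 6.46%. The NOD-FMT and PBS-T ranges overlapped between 6.01% and 10.9%. Among NOD-FMT mice, mouse 1 stood far above the others, and mouse 3 came next at 10.7%. Group means were 9.58% ± 2.95 (SD, n = 10), 7.35% ± 1.84 (n = 9) and 6.13% ± 0.573 (n = 5). The NOD-FMT mean exceeded the PBS-T mean by 2.23 percentage points, which missed the threshold in a two-sided exact permutation test over mice (p = 0.0529, Benjamini-Hochberg adjusted p = 0.211 over 12 share tests). It exceeded the NC mean by 3.44 points (exact permutation p = 0.0137, adjusted p = 0.164), and the PBS-T mean exceeded the NC mean by 1.21 points (exact permutation p = 0.185, adjusted p = 0.554). Without NOD-FMT mouse 1 the excess over PBS-T was 1.41 points (exact permutation p = 0.0934, adjusted p = 0.374), and within the merged and the other LG libraries it was 2.59 and 1.45 points (exact permutation p = 0.257 and 0.206).

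Shares of counts in the LG were more uneven between mice. NOD-FMT mice ranged from 3.63% to 26.6% with a median of 12.3%, PBS-T mice from 1.45% to 33.9% with a median of 4.25% and NC mice from 1.86% to 8.48% with a median of 5.88%. The highest of all, PBS-T mouse 6, owed 23.5% of its LG counts to the single clonotype IGHV1-53 IGHJ2 AKRLYDY. Means were 12.8% ± 6.63, 8.64% ± 10.5 and 5.59% ± 2.70, and none of the 3 differences passed after adjustment (exact permutation adjusted p = 0.772 for NOD-FMT against PBS-T, 0.208 against NC and 0.822 for PBS-T against NC). Without PBS-T mouse 6 the NOD-FMT excess over PBS-T rose from 4.14 to 7.30 points (exact permutation p = 0.0178, adjusted p = 0.0711), and the difference of PBS-T and NC turned from 3.06 to -0.098 points.

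Spleen shares of the 3 groups lay close together. Mean shares of clonotypes were 7.74% ± 1.15 in NOD-FMT, 8.05% ± 0.946 in PBS-T and 8.12% ± 1.32 in NC mice. Mean shares of counts were 9.38% ± 2.41, 9.12% ± 2.83 and 11.1% ± 5.74. NOD-FMT minus PBS-T was -0.30 points for clonotypes and 0.26 points for counts (exact permutation p = 0.558 and 0.828). The 5 spleens with the fewest clonotypes held both high and low shares. From fewest clonotypes they were PBS-T mouse 6 (23002 clonotypes, 9.16% short), NC mouse 2 (41494, 10.4%), PBS-T mouse 2 (60586, 6.70%), NOD-FMT mouse 2 (68431, 10.8%) and NOD-FMT mouse 6 (78769, 7.01%). The part of library size in these shares was not tested.

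**Figure D1:**
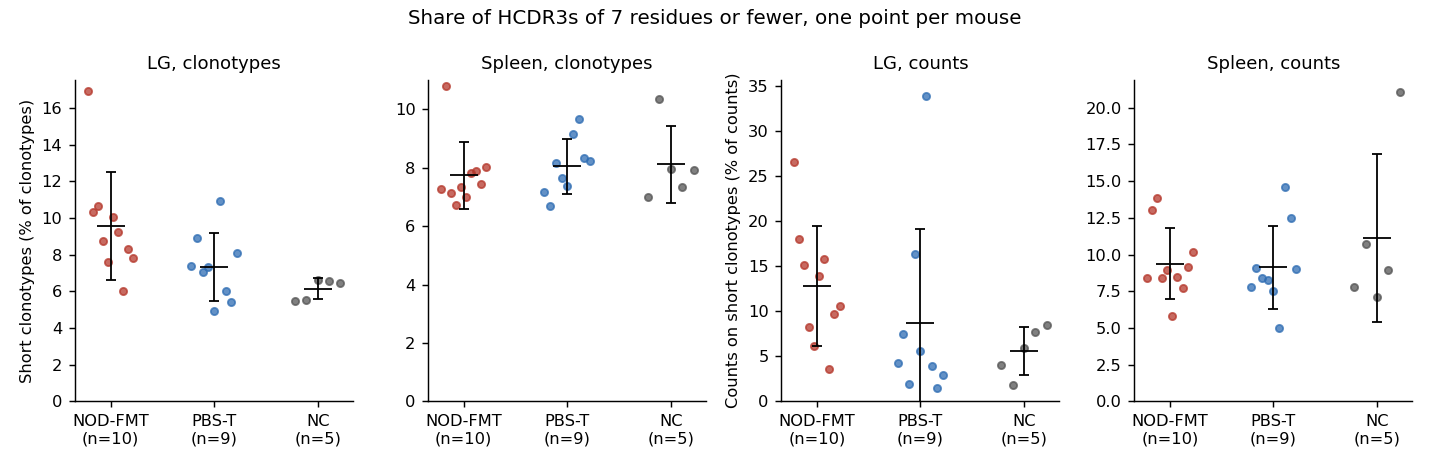
Share of clonotypes (left panels) and of counts (right panels) that had an HCDR3 of 7 residues or fewer, in percent, in the LG and spleen of each mouse by group. Points are mice and bars are the mean ± SD of 10 NOD-FMT, 9 PBS-T and 5 NC mice. NOD-FMT mouse 1 stands at 16.9% of LG clonotypes and PBS-T mouse 6 at 33.9% of LG counts, above the other mice of their groups.

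Within mice, LG minus spleen differed in sign between the groups, but no within-group difference passed. The LG share of clonotypes was above that of the spleen in 7 of 10 NOD-FMT mice (mean difference 1.84 points, exact sign-flip permutation p = 0.0723), in 3 of 9 PBS-T mice (-0.70 points, exact permutation p = 0.332) and in 0 of 5 NC mice (-1.99 points, exact permutation p = 0.0625, the smallest 5 mice allow). The differences between groups missed the threshold after adjustment over 6 comparisons, with 2.53 points for NOD-FMT against PBS-T (exact permutation adjusted p = 0.0912) and 3.82 points against NC (exact permutation adjusted p = 0.0519). Over all 24 mice the difference was 0.089 points (permutation p = 0.891). It was -3.18 points, lower in the LG, with clonotypes of at least 2 counts (permutation p = 0.00027). Of the short clonotypes of a library, 28.6% to 70.5% rested on 1 count in the LG and 75% to 84.4% in the spleen, with LG medians of 46.5%, 48.8% and 48.6% in NOD-FMT, PBS-T and NC mice.

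The removal step acted differently on short clonotypes. In the spleen it took 20.2% of the counts of short HCDR3s against 8.45% of the counts of longer ones, and short HCDR3s made up 32.8% of the removed sequences. In the LG it took 3.18% against 10.6%. It removed every trace of 397 short clonotypes in the spleen and of 1 in the LG.

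The make-up of short HCDR3s is bound up with their length and is given as a description. A mean short LG HCDR3 had 4.52 bases of the V gene, 7.17 of the J gene, 2.54 of a D gene and 4.85 untemplated bases. In the spleen these were 4.51, 6.59, 3.02 and 4.75 bases. At 11 to 13 residues the LG values were 6.09, 13, 9.49 and 7.24 bases. No D gene was called in 59.6% ± 12.2 (SD, n = 24) of short LG HCDR3 sequences and in 54.4% ± 1.06 in the spleen. At 8 to 10 residues this was 26.6% and 22.7%, and at 11 to 13 residues 5.17% and 4.87%. An absent D call says that no D stretch was long enough to be assigned, not that no D gene took part. Alignments of 9.60% of LG and 8.90% of spleen sequences could not be split this way and were left out.

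**Figure D2:**
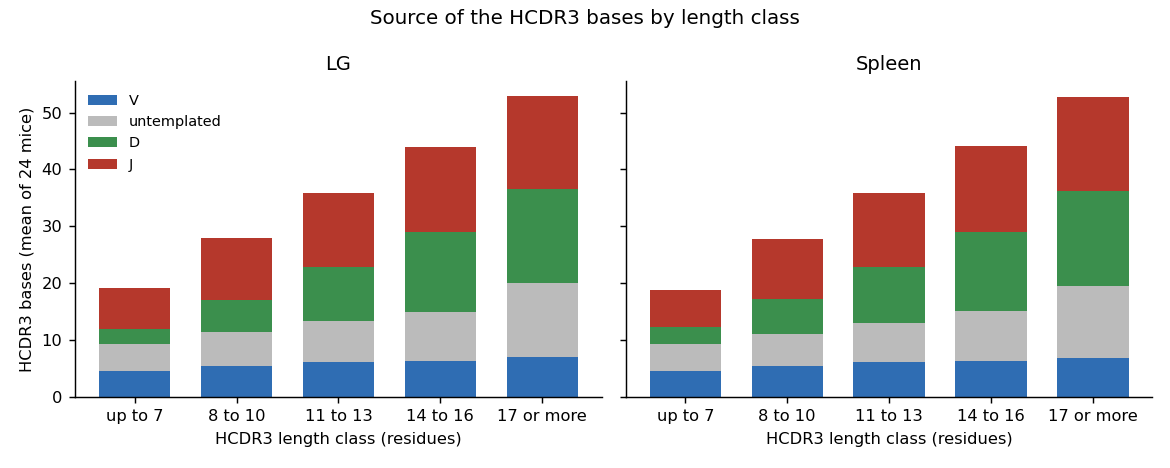
Mean number of HCDR3 bases from the V gene, untemplated, from the D gene and from the J gene, by HCDR3 length class in residues, in the LG and the spleen. Bars are means over 24 mice of the library means. Short HCDR3s held 2.54 (LG) and 3.02 (spleen) bases of a D gene, against 9.49 and 9.89 at 11 to 13 residues.

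The J genes differed in the same way in both tissues. In the LG, IGHJ2 made up 50.8% of short clonotypes against 33.0% of longer ones and IGHJ3 34.7% against 22.4%. IGHJ1 made up 4.65% against 19.2% and IGHJ4 9.86% against 25.4%. Spleen values were 51.3% against 32.7% for IGHJ2, 31.8% against 23.5% for IGHJ3, 4.84% against 16.1% for IGHJ1 and 12.1% against 27.6% for IGHJ4. The genes with the shorter germline HCDR3 part were the ones over-represented, and J bases are part of the length that chose the clonotypes. The J genes present were also trimmed further. IGHJ4 kept 8.13 bases in short and 15.8 in longer LG HCDR3s, and IGHJ2 kept 6.25 and 10.6. HCDR3s that ended in FDV, from IGHJ1, made up 2.97% of short and 17.7% of longer LG clonotypes. Those that ended in MDY, from IGHJ4, made up 4.71% and 23.1%. FAY, the end of IGHJ3, was at 16.5% and 17.9% in the LG but at 11.8% and 20.1% in the spleen.

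V genes were compared between the short and the longer clonotypes of the same mouse, as the percent of clonotypes that used each. Percentages sum to 100 over genes, so a rise of some lowers the others. The germline V bases are part of the length that chose the clonotypes, as J bases are, so the differences are a description and nothing is read from the counts of calls. In the LG 5 of 91 genes tested were higher (5.49%) and 29 were lower (31.9%) in short clonotypes in a two-sided sign-flip permutation test with Benjamini-Hochberg adjustment. In the spleen 21 of 84 were higher (25%) and 57 lower (67.9%). Of 82 genes tested in both tissues, 4 were higher in both, 25 were lower in both, and IGHV1-55 was higher in the LG and lower in the spleen. Many of the low genes in the LG were rare. Among the 32 LG genes with a mean of at least 1%, 3 were higher and 10 lower, and among 40 such spleen genes 13 and 25.

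The part of germline V length in the differences of V genes was not tested. IGHV6-3 had the largest difference. It took 10.3% ± 7.80 (SD, n = 24) of short and 1.174% ± 0.707 of longer LG clonotypes, and was higher in short clonotypes in 24 of 24 mice. In the spleen it took 7.23% ± 1.25 against 1.87% ± 0.292, again in 24 of 24 mice. IGHV6-6, of the same family, took 5.76% ± 3.65 against 1.35% ± 0.697 in the LG (higher in 23 of 24 mice) and 3.50% ± 0.674 against 1.18% ± 0.219 in the spleen (24 of 24 mice). IGHV14-4 took 2.89% against 0.981% in the spleen, in 24 of 24 mice. In the LG it took 1.92% ± 3.27 against 0.575%, higher in 13 mice, with 15.2% in its highest mouse. IGHV3-4 took 0.960% ± 1.81 against 0.088% in the LG, higher in 9 mice and lower in 7.

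Other spleen genes raised in short clonotypes of all 24 mice were IGHV1-15 (2.78% against 0.953%), IGHV10-1 (2.72% against 1.42%) and IGHV1-53 (5.16% against 4.03%). IGHV1-26 was the most used spleen gene, with 7.30% of short and 7.79% of longer clonotypes (lower in 22 of 24 mice). IGHV1-64 took 3.90% against 3.79%, and this difference turned to -0.23 points by percent of counts. In the LG, IGHV1-53 took 6.39% ± 7.43 of short clonotypes against 5.13% and IGHV1-64 took 3.98% against 3.81%.

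IGHV8-8 and IGHV8-12 were nearly missing from short clonotypes. IGHV8-8 took 0.085% of short and 1.65% of longer LG clonotypes and 0.244% and 2.01% in the spleen, lower in 24 of 24 mice in both tissues. IGHV8-12 took 0.110% against 1.36% in the LG (lower in 23 of 24 mice) and 0.105% against 1.47% in the spleen (24 of 24). The 10 HCDR3 bases of germline IGHV8-8 are part of the length that chose the clonotypes. In the LG IGHV1-72 (1.80% against 3.91%), IGHV1-26 (4.42% against 6.41%) and IGHV1-76 (1.03% against 2.44%) were lower as well. IGHV9-3 (1.72% against 2.96%), IGHV1-62-2 (0.233% against 1.29%) and IGHV1-18 (1.41% against 2.46%) were lower in the spleen in 24 of 24 mice.

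IGHV1-55 took 6.58% ± 4.71 of short and 3.04% ± 1.23 of longer LG clonotypes (higher in 17 of 24 mice). In the spleen it took 3.34% ± 0.415 against 3.54% ± 0.353 (lower in 18 of 24). It is singled out because its differences had opposite signs in the tissues, 3.74 points apart, so no test of that gap is given.

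**Figure D3:**
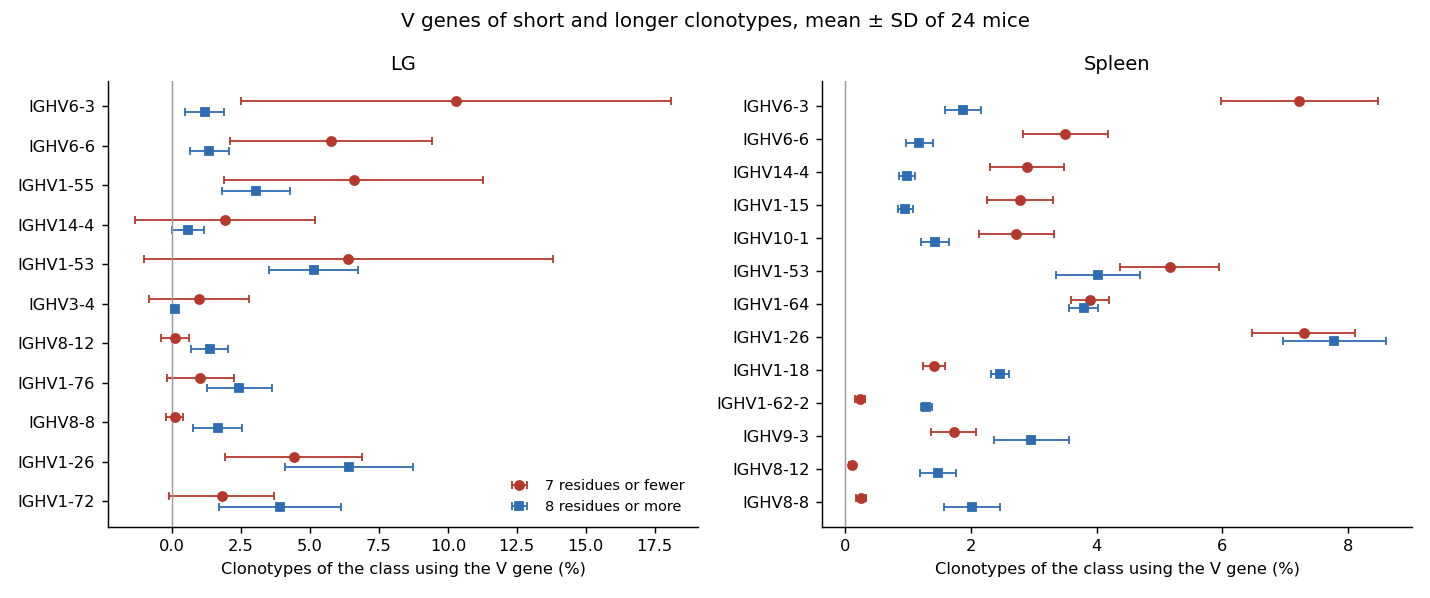
Percent of short (HCDR3 of 7 residues or fewer) and of longer clonotypes that used each named V gene, in the LG and the spleen. Points are means and bars the SD of 24 mice. IGHV6-3 stands at 10.3% of short against 1.174% of longer LG clonotypes, and IGHV8-8 at 0.085% against 1.65%.

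The use of V genes among short clonotypes was then compared between NOD-FMT and PBS-T mice. In the LG 0 of 91 genes (0%) passed in the exact permutation test, with 10 at an unadjusted p under 0.05. In the spleen 0 of 84 (0%) passed, with 4 at an unadjusted p under 0.05. The quasi-likelihood test of edgeR on numbers of short clonotypes per V gene called 5 of 87 genes in the LG, with 15 at an unadjusted p under 0.05, and 0 of 84 in the spleen, with 3. IGHV6-3 was among those 5. Its percent of short LG clonotypes ranged from 1.76% to 33.3% (median 11.9%) in NOD-FMT, from 2.00% to 8.11% (median 5.87%) in PBS-T and from 5.17% to 15.3% (median 13.7%) in NC mice. The NOD-FMT range contained those of NC and PBS-T. Means were 14.3% ± 9.86, 5.07% ± 2.28 and 11.8% ± 4.13 (NOD-FMT against PBS-T, exact permutation p = 0.00272, adjusted p = 0.189, edgeR log2 ratio 1.43, adjusted p = 0.0444). The other edgeR calls were IGHV1-39 (5.03% against 1.28%) and, lower in NOD-FMT, IGHV14-4 (0.406% against 2.96%), IGHV1-80 (0.743% against 5.22%) and IGHV1-53 (3.09% against 10.1%), and all 4 missed the threshold in the exact permutation test (adjusted p of at least 0.189). For IGHV1-80, IGHV1-53 and IGHV14-4 single PBS-T mice reached 30.0%, 36.0% and 15.2%. In the spleen IGHV6-3 was at 6.97% ± 1.32, 7.53% ± 1.167 and 7.20% ± 1.38 in NOD-FMT, PBS-T and NC mice.

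Somatic mutation was measured as mismatches of a sequence to its germline V gene. In the LG, short clonotypes were less mutated than longer ones. Of short LG clonotypes 60.4% held an unmutated sequence against 52.5% of longer ones, a difference of 7.91 points that was positive in 19 of 24 mice (permutation p = 0.00016, adjusted p = 0.00032). Mismatches were averaged over the counts of each clonotype and then over clonotypes. Short clonotypes had a mean of 1.76 against 2.14 mismatches, lower in 19 and higher in 5 mice (permutation adjusted p = 0.00156). By group the unmutated difference was 8.26 points in NOD-FMT, 3.38 in PBS-T and 15.4 in NC mice. The difference in mismatches was -0.315, -0.145 and -0.964. In the spleen the differences were small, with 79.6% against 81.4% unmutated (permutation adjusted p = 4.4e-05) and 0.811 against 0.741 mismatches (permutation adjusted p = 0.00909). Both spleen differences changed sign when no sequence was removed (0.499 points and -0.0054 mismatches) or when clonotypes needed 2 counts (4.81 points and -0.231 mismatches). The LG difference in the unmutated percent exceeded that of the spleen by 9.65 points (permutation adjusted p = 4e-05).

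Counts on short clonotypes were mostly IgA in the LG and mostly IgM in the spleen. In the LG, IgA held 86.0% of the counts of short and 88.5% of the counts of longer clonotypes, and no LG isotype differed past the threshold (lowest permutation adjusted p = 0.158, for IgM). In the spleen IgM held 76.1% of short against 69.8% of longer counts (permutation adjusted p = 0.00748), IgD 4.13% against 6.28% (permutation adjusted p = 2.44e-05) and IgE was lower by 0.0075 points (permutation adjusted p = 0.00909). The IgD difference turned to 0.153 points with clonotypes of at least 2 counts. Spleen IgG (permutation adjusted p = 0.150) and IgA (0.167) missed the threshold.

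Between NOD-FMT and PBS-T mice, no trait of the short clonotypes passed after adjustment. LG IgA was uniformly high in NOD-FMT mice, from 91.8% to 99.8% of the counts on short clonotypes, and scattered from 12% to 99.8% in PBS-T mice. The low PBS-T values were mouse 9 (12%, with 80.4% IgM) and mouse 2 (14.3%, with 48.5% IgM). The longer clonotypes of both libraries were low in IgA too, at 14% and 44.6%. Means were 96.8% ± 2.56 and 71.3% ± 35.1 (exact permutation p = 0.00881, adjusted p = 0.0615). LG IgM was at 0.942% against 19% with the same adjusted p. Whether RNA per cell or the number of cells of a class set such shares cannot be told apart in bulk libraries.

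Short clonotypes were shared between mice more often than longer ones, which is given as counts without a test. In the spleen 15.8% of short clonotypes occurred in at least 2 mice. The share fell to 9.20% at 8 to 10 residues, 4.89% at 11 to 13, 2.84% at 14 to 16 and 0.498% at 17 or more. Short clonotypes were 264 of the 627 spleen clonotypes held by at least 12 mice, or 42.1%, and 17 of the 53 held by at least 20. The removal step itself acts on sequences by the number of mice, and without it the numbers were 1184 of 2556 (46.3%) and 194 of 399 (48.6%). In the LG 8.62% of short clonotypes occurred in at least 2 mice, against 6.46% at 8 to 10 residues, 5.34% at 11 to 13, 5.95% at 14 to 16 and 6.72% at 17 or more. Without the library of PBS-T mouse 5 these LG shares were 9.38%, 7.11%, 5.27%, 6.28% and 6.73%. LG libraries hold far fewer clonotypes than spleen libraries, and the tissues were not compared. Of the 2564 short LG clonotypes 2343 occurred in 1 mouse, 159 in 2, 41 in 3, 12 in 4 and 9 in 5 or more.

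**Figure D4:**
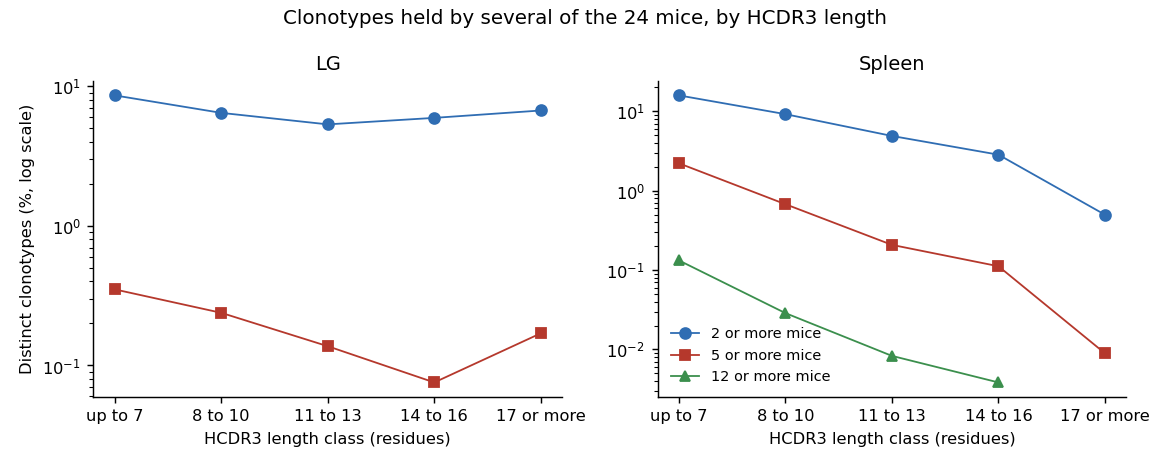
Percent of distinct clonotypes found in at least 2, at least 5 and at least 12 mice of 24, on a log axis, by HCDR3 length class in residues, in the LG and the spleen. In the spleen the share in at least 2 mice falls from 15.8% at up to 7 residues to 0.498% at 17 or more.

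The 8 short spleen clonotypes shared most widely had low counts, and 7 of them came in 15 to 44 nucleotide forms. They were ranked after the removal step, which took out sequences held by over 2 mice. A clonotype left in many mice must then hold many sequences and may have lost common ones, so low counts and many forms depend on that step. Without it ARSLDY, ARGGFAY and ARNWDY were in 24 spleens, and 194 short clonotypes were in at least 20. IGHV6-6 IGHJ3 TTGFAY occurred in all 24 spleens with 24 HCDR3 nucleotide forms over 420 counts, 98.8% of them IgM. The form printed above was in 15 mice. IGHV1-26 IGHJ3 ARGAY also occurred in all 24 spleens, with 15 forms over 135 counts, and its printed form in 19 mice. IGHV1-72 IGHJ2 ARSLDY occurred in 23 spleens with 38 forms. IGHV1-22 IGHJ2 ARRLDY (44 forms), IGHV1-47 IGHJ3 ARGGFAY (33 forms) and IGHV2-2 IGHJ2 ARNWDY occurred in 22 each, the last with 5 forms, 1 of which held 128 of its 147 counts. IGHV1-53 IGHJ2 ARGDY occurred in 21 and IGHV1-53 IGHJ3 ARDGFAY in 20. None of these exceeded 0.0577% of the counts of a spleen.

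The shortest HCDR3s were rare. No LG clonotype of 3 residues or fewer occurred in more than 1 mouse. In the spleen IGHV1-77 IGHJ2 RDY was found in 3 mice, and IGHV1-77 IGHJ2 Y, IGHV1S137 IGHJ1 FDV and IGHV2-6 IGHJ1 V in 2 each, with 2 or 3 counts in all. The sequences of RDY and Y carried 16 and 18.3 mismatches to the germline V gene on average.

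Many short LG clonotypes were also in the spleen of the same mouse. This held for 39.1% ± 13.3 (SD, n = 24) of short clonotypes and 32.7% ± 12.9 of longer ones, and the short value was higher in 21 of 24 mice. These short clonotypes held 81.5% of the short LG counts, and their longer counterparts 84.5%. By group the short values were 39.8% in NOD-FMT, 38.9% in PBS-T and 38.0% in NC mice. Short clonotypes are also shared more often between the spleens of different mice. Overlap with the spleens of other mice is not given by length class, and the part of coincident identity was not tested.

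Clonotypes held in the LG by at least 2 mice of a group, and by no LG of the other gavaged group or of NC, were counted as group-restricted. Of the 2564 short LG clonotypes 68 (2.65%) were restricted to NOD-FMT mice and 23 (0.897%) to PBS-T mice. Over all lengths the counts were 252 (0.67%) and 309 (0.821%) of 37638. These leaned on PBS-T mouse 5, and without it they were 259 and 76 of 21595, so that the order of the groups turned. Short ones were 27.0% of the clonotypes restricted to NOD-FMT and 7.44% of those restricted to PBS-T mice, against 9.77% of the 2262 LG clonotypes held by at least 2 mice. Without PBS-T mouse 5 these 3 shares were 27.0%, 7.89% and 12.3%. The difference of 45 short clonotypes had a two-sided exact permutation p of 0.0228 over all 92378 splits of the 19 mice. The LG libraries of NOD-FMT mice held a mean of 149620 counts and those of PBS-T mice 82836, and with all thinned to 40105 counts the difference was 23.8 (42.9 against 19.1, exact permutation p = 0.0173). The call was lost with limits of 6 residues (25, exact permutation p = 0.105) and 8 residues (45, exact permutation p = 0.085). It also depended on the mice included. The difference was 26 without NOD-FMT mouse 1, 40 without mouse 6, 21 without mouse 7, 32 without mouse 9 and 41 without NC mouse 3 (exact permutation p = 0.0971, 0.0517, 0.161, 0.0721 and 0.0512), and 64 when PBS-T mouse 5 was left out (70 against 6, exact permutation p = 0.000183).

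The merged libraries were then set apart. Among merged LG libraries alone, 39 short clonotypes were restricted to NOD-FMT and 2 to PBS-T mice (exact permutation p = 0.0143). In the LG libraries that were not merged, the numbers were 12 and 12 (exact permutation p = 1). PBS-T mouse 5 is one of these, and without it they were 12 and 2 (exact permutation p = 0.0286, the smallest that 4 against 4 mice allow). The part of merging in the pooled difference was not tested.

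Wider sharing is given as counts without a test. Of 41 clonotypes of any length restricted to NOD-FMT and held by at least 3 mice, 23 were short, while 0 of 10 such PBS-T clonotypes were. Over all groups, 9 of the 62 LG clonotypes held by at least 5 mice were short (14.5%). That is another level of sharing, and the 9 include the 5 restricted to NOD-FMT mice. The share over all groups at 3 or 4 mice is not given here. NOD-FMT LG libraries held a mean of 149620 counts and PBS-T ones 82836, and the restricted numbers at 3 or more mice were not thinned. All 9 restricted clonotypes held by at least 4 NOD-FMT mice were short. They were IGHV6-3 IGHJ3 TGDGFAY (9 mice), IGHV6-3 IGHJ1 TRYFDV (6 mice), IGHV6-3 IGHJ3 TGQGFAY and TGDSFAY and IGHV6-6 IGHJ3 TRLGFAY (5 mice each), and IGHV6-3 IGHJ3 TWDGFAY, IGHV6-3 IGHJ1 SRYFDV, IGHV1-55 IGHJ2 ARDRAY and IGHV5-17 IGHJ3 ARPRFAY (4 mice each). SRYFDV, IGHV1-55 IGHJ2 ARDRAY and ARPRFAY are named because their values were seen. ARPRFAY rested on 28 LG counts in 2 nucleotide forms, and IGHV1-55 IGHJ2 ARDRAY on 141 in 5. The latter differs only in its J call from IGHV1-55 IGHJ3 ARDRAY, with 23385 LG counts. Its end AY is encoded by the printed germline IGHJ3 and not by IGHJ2.

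The make-up of the restricted clonotypes is given without a test, beside that of the 221 short LG clonotypes held by at least 2 mice and of all 2564. IGHV6-3 or IGHV6-6 was used by 24 of the 68 NOD-FMT ones (35.3%), by 2 of the 23 PBS-T ones (8.70%), by 24.4% of the 221 and by 11.5% of all. IGHJ3 was used by 38 (55.9%), 7 (30.4%), 42.5% and 32.1%. At least 1 unmutated sequence was present in 57 (83.8%), 14 (60.9%), 75.6% and 54.2%. More counts and more mice give a clonotype more chances to hold such a sequence, and the sets were matched for neither. The NOD-FMT clonotypes are 68 of the 221. Without PBS-T mouse 5 the PBS-T clonotypes numbered 6. IgA took 99.6% of the 88055 LG counts of the NOD-FMT set and 42.6% of the 1441 counts of the PBS-T set. Over all short LG clonotypes the mean IgA share of counts was 96.8% in NOD-FMT and 71.3% in PBS-T mice, where it fell to 12% in the lowest library. The NOD-FMT set held 1.51% to 9.90% of the LG counts of a NOD-FMT mouse (median 5.06%) and the PBS-T set 0.0139% to 0.423% of those of a PBS-T mouse. In the spleen, 58 of the 68 occurred in at least 1 NOD-FMT mouse, 23 in PBS-T mice and 25 in NC mice, so the restriction of these last held for the LG and not for the spleen. Of the 23 PBS-T clonotypes, 8 occurred in NOD-FMT, 10 in PBS-T and 7 in NC spleens. Of all short LG clonotypes, 47.7% occurred in a spleen library of any mouse, a share not matched for presence in several LGs. The sets were chosen in the LG of the same mice. The 10 NOD-FMT, 9 PBS-T and 5 NC spleens held means of 181583, 105288 and 140179 clonotypes. These spleen numbers are thus not a comparison of the groups. Without IGHV6-3 and IGHV6-6 the restricted numbers were 44 and 21 (exact permutation p = 0.178). These genes were left out after the data were seen and supply 24 of the 68 and 2 of the 23. A smaller difference was thus set in advance, and nothing is read from the lost call about these genes.

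TGDGFAY was the most shared of them. Its LG shares of counts were 2.29% in NOD-FMT mouse 6, 0.459% in mouse 7, 0.422% in mouse 5, 0.198% in mouse 10 and 0.129% in mouse 9. In mice 4, 1, 8 and 2 they were 0.0204%, 0.0128%, 0.0119% and 0.00076%, the last of these resting on 2 counts. NOD-FMT mouse 3 and all PBS-T and NC LG libraries held none. The 3569 LG counts fell on 16 nucleotide forms of the HCDR3, 11 of them in 1 mouse, and were 99.9% IgA. The spleens of all 10 NOD-FMT mice held it, from 0.00149% to 0.131% of counts, with 73.8% of 1750 counts IgA. NC mouse 2 held 1 spleen count and no PBS-T spleen held it after the removal step, while 1 did before it.

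TGQGFAY held 2.67% of the LG counts of NOD-FMT mouse 2 and 0.457% of those of mouse 10, and 0.173% or less in 3 others. TRLGFAY was spread more evenly, at 0.463%, 0.325%, 0.987%, 0.261% and 0.510% in NOD-FMT mice 1, 2, 8, 9 and 10. TRYFDV, with the J end of IGHJ1, was at 0.599% in mouse 6 and 0.0883% or less in 5 others. In the spleen TRYFDV occurred in all 10 NOD-FMT, 3 PBS-T and 2 NC mice, and before the removal step in 10, 7 and 5.

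TGDGFAY, TGQGFAY, TGDSFAY, TWDGFAY and TRLGFAY share IGHV6-3 or IGHV6-6, IGHJ3, 7 residues and the end FAY. The whole family with these features was known from earlier results of these data, so its levels are a description. The LG held 48 such clonotypes, 37 with IGHV6-3 and 11 with IGHV6-6. In the IGHV6-3 members residue 1 was T in 30, residue 2 was G in 16, residue 3 was D in 17 and residue 4 was G in 23 of 37. Of their 25085 LG counts 99.7% were IgA and 85.3% lay on unmutated sequences.

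Every NOD-FMT LG held the family. The shares of counts in NOD-FMT mice 1 to 10 were 0.700%, 3.14%, 1.25%, 5.00%, 0.726%, 6.71%, 0.951%, 1.04%, 0.766% and 1.24%. Among PBS-T mice it was found in mouse 3 at 0.00997% (4 counts) and mouse 5 at 0.00323% (7 counts), and in none of the other 7. Among NC mice it was found in mouse 1 at 0.0285% and mouse 4 at 0.0582%. The lowest NOD-FMT value was above the highest value of the other groups. The family took 60.2% and 48.2% of the short LG counts in NOD-FMT mice 4 and 6, and from 2.63% (mouse 1) to 28.7% (mouse 8) in the other NOD-FMT mice. In the spleen all 24 mice held members, 1254 in all. Median shares of counts there were 0.138% in NOD-FMT, 0.0551% in PBS-T and 0.0800% in NC mice, the ranges overlapped, and 32.8% of the counts were IgA. In the spleen G led residue 3 of the IGHV6-3 members (137 of 747) and W led residue 4 (157 of 747).

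**Figure D5:**
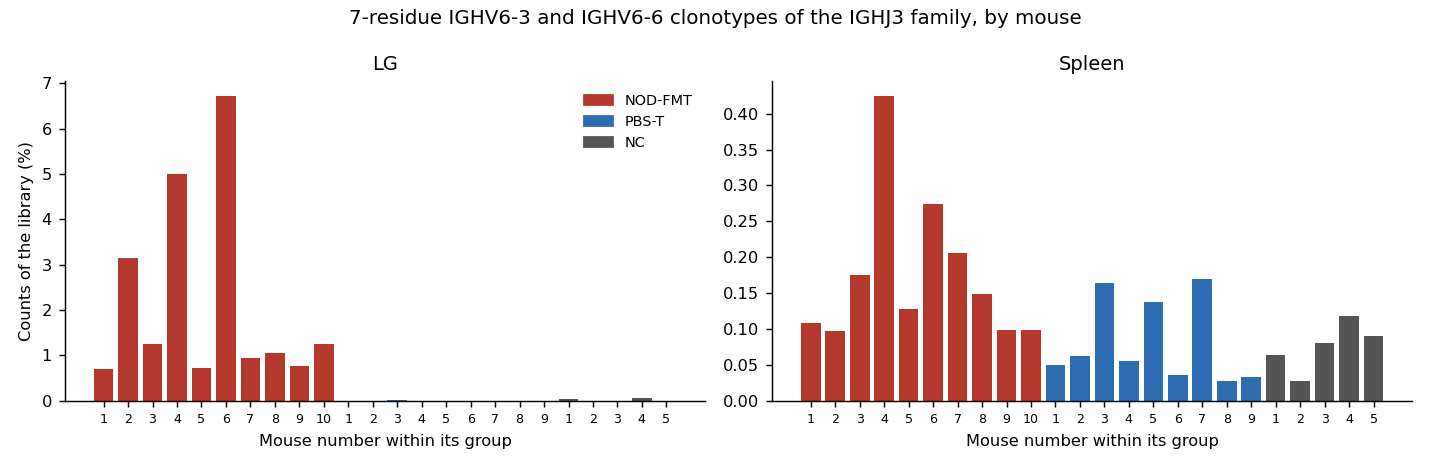
Share of counts, in percent, on clonotypes of IGHV6-3 or IGHV6-6 with IGHJ3 and a 7-residue HCDR3 of the family end, in each LG and spleen by group. Bars are mice, and the vertical scales of the 2 panels differ. The 10 NOD-FMT LG values run from 0.700% to 6.71%, above the highest value of the others, 0.0582%.

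Clonotypes expanded in single mice carried much of the short LG counts. IGHV1-55 IGHJ3 ARDRAY held 8.95% of the LG counts of NOD-FMT mouse 1, with 0.634% in mouse 9 and 0.251% in mouse 7. IGHV6-6 IGHJ4 TPFMDY held 9.67% in PBS-T mouse 4, IGHV1-66 IGHJ2 ARIGDY 5.96% in NOD-FMT mouse 3, IGHV1-64 IGHJ2 AREGSYY 4.12% in NOD-FMT mouse 1 and IGHV6-3 IGHJ3 TYDGFAY 3.79% in NOD-FMT mouse 4. IGHV1-53 IGHJ2 AKRLFEY held 3.68% of the LG counts of PBS-T mouse 6. IGHV1-55 IGHJ2 ARGRDY reached 2.79% in NOD-FMT mouse 7 and 1.93% in mouse 9. All of these were over 99% IgA. In the spleen, IGHV1-59 IGHJ4 AREMDY, chosen after its values were seen, held 4.71% of the counts of NOD-FMT mouse 3 and was 74.6% IgG.

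A wide spread over mice could also rest on 1 library. IGHV1-63 IGHJ2 ARSGGDY was held by 7 mice, but 766 of its 773 LG counts lay in PBS-T mouse 5, and the other 6 libraries held 1 or 2 counts each. It was 99.0% IgG, and 770 counts shared the nucleotide form printed above, which all 7 mice held. IGHV3-6 IGHJ1 ARYFDV was held by 6 mice with 640 counts, 634 of them in PBS-T mouse 5. IGHV1-55 IGHJ3 ARGFAY was held by 7 mice, 5 of them PBS-T, with 600 counts in 3 forms, 500 of them in NOD-FMT mouse 5, and was 100% IgA.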

How the data were processed

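BCR heavy chains were sequenced from the LG and spleen of 24 mice. The authors joined read pairs (PEAR), filtered them by quality, built a consensus from reads that share a UMI (Clustal Omega, singletons dropped), and assigned isotypes against IMGT constant genes and V(D)J regions with IgBLAST. The labels name the build mm10, and the germline reference release is not given in the sources used here. The deposited counts are consensus sequences per unique sequence and isotype, not normalized. The deposited mutation values are mismatches to the germline IGHV gene.

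A nucleotide sequence that occurred in over 2 mice in the same tissue was taken out, since the deposited files still held such sequences, and clonotypes were then formed. This took 9.83% of LG and 9.84% of spleen counts. The study describes its own step in like words but with a far smaller loss, so that the steps are not the same. Leaving such a sequence in the 1 mouse that held most counts of it, an alternative added after the data were seen, took 0.245% and 3.58%. Percentages are of the clonotypes or counts that remained. Germline sequences and positions are those of GENCODE M21 (GRCm38), which placed 87 of 93 V genes sought by symbol. HCDR3 bases were assigned to V, D or J from the deposited alignments.

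The mouse was the unit of every test. Group differences were tested by exact permutation (two-sided) over all splits of mice, and short with longer clonotypes or LG with spleen within mice by sign flips (100000 resamples), with Benjamini-Hochberg adjustment at 0.05 over 12 share tests, 22 trait tests or the V genes of a tissue with a mean of at least 0.1% of clonotypes. The labels name the mice as biological replicates. The V genes named were the 5 most used and, among those past the threshold, the 5 largest differences of short and longer clonotypes in each direction, and the clonotypes named were the 8 held by most mice and the 8 of highest mean share, with the family of TGDGFAY. Members, lists and tests were chosen with earlier results of these data known. Sharing by length class, lengths and HCDR3 bases carry no test, and of the tests of V and J genes between short and longer clonotypes the numbers of V genes called are printed, without p-values, since V and J bases are part of the length. The scripts were tested on simulated data. In 20 simulations without a true difference, the test of short against longer clonotypes called a mean of 2.4 of 91 LG V genes (at most 7). Most of these calls, a mean of 2.35, were of lower genes, and the spleen mean was 0.3 of 84. Alternatives were other removal rules, count minimums, length limits and scales, thinning, edgeR and leaving out each mouse. Those added after the data were seen were the changes in the comparisons with NC, V genes of at least 1%, the omission of IGHV6-3 and IGHV6-6, and the LG libraries not marked as merged without PBS-T mouse 5. Python 3.11.15, numpy 2.4.6, pandas 2.3.3, scipy 1.17.1, matplotlib 3.10.9, edgeR 4.0.16 and R 4.3.3 were used.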

Additional observations from a re-analysis of the deposited data

Results flagged for a closer look

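In 12 groups of 5 to 10 libraries, 5 values lay far from the rest of their group. How often chance gives such values in shares this uneven was not tested. NOD-FMT mouse 1 had 16.9% short clonotypes in the LG, and PBS-T mouse 6 had 33.9% of its LG counts on short clonotypes. In the spleen NOD-FMT mouse 2 and NC mouse 2 had 10.8% and 10.4% short clonotypes, and NC mouse 5 had 21.1% of its counts on short clonotypes.

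The difference of short and longer clonotypes was itself different between the LG and the spleen for 3 measures, in a sign-flip permutation test within the 24 mice. It was higher in the LG by 2.15 points for the IgD share of counts (23 of 24 mice) and by 9.65 points for the percent of clonotypes with an unmutated sequence (21 of 24 mice), each with a permutation adjusted p of 4e-05. LG IgD was 0.0207% of the counts of short and 0.0225% of those of longer clonotypes, so the IgD value is in effect the spleen difference of -2.16 points. For the mean mutation number the difference was lower in the LG, at -0.456 mismatches (higher in the LG in 4 of 24 mice, permutation adjusted p = 0.000213). For IGHV1-55 it was higher in the LG by 3.74 points (17 of 24 mice), but this gene was taken up because its differences had opposite signs in the tissues, so no p is given. The spleen side of the first 3 changed sign with clonotypes of at least 2 counts.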

How the results depend on the processing

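Of the differences between groups, none of the 12 in the share of short clonotypes or counts passed the threshold, and 1 alternative gave a call. With HCDR3s of 8 residues or fewer, the LG clonotype share of NOD-FMT exceeded that of NC by 4.71 points (exact permutation adjusted p = 0.048), so that 1 comparison with NC was called in place of 0. The small spleen differences of NOD-FMT and PBS-T changed sign, to -0.27 points of counts when sequences in 2 or more mice were removed, and to 0.36 and 0.011 points of clonotypes with clonotypes of at least 2 counts and with libraries thinned to 71859 counts. Where a sequence shared by over 2 mice was kept in the mouse with its highest count, LG minus spleen of counts turned to -0.639 points, and no other share, trait or restricted number changed its call or direction (restricted difference 44, exact permutation p = 0.0281). LG minus spleen changed sign under most settings. For clonotypes it was -0.42 with no removal, -3.18 with at least 2 counts, -0.16 and -0.97 with limits of 6 and 8 residues, -0.032 on the log2 scale and -0.63 with thinning, and for counts it was -1.27, -0.92, -1.57, -1.62 and -0.37 for the same settings without thinning.

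The number of short clonotypes restricted to NOD-FMT minus that restricted to PBS-T missed the threshold with a limit of 6 residues (25, exact permutation p = 0.105) or 8 residues (45, p = 0.085), among the LG libraries not marked as merged (0, p = 1, but 10 when PBS-T mouse 5 was left out as well, p = 0.0286) and without IGHV6-3 and IGHV6-6 (23, p = 0.178). The fall without IGHV6-3 and IGHV6-6 was set in advance, since these genes were left out after the data were seen and are common in the NOD-FMT set. Thinned to 40105 counts the restricted difference was 23.8 (exact permutation p = 0.0173). LG V genes that differed from longer clonotypes numbered 34, against 20 when set against 8 to 10 residues and 13 among genes of at least 1%, while the spleen count of 78 became 38 among such genes. For NOD-FMT against PBS-T, edgeR called 5 LG genes in place of 0. Of single genes, spleen IGHV1-64 turned to -0.23 points by percent of counts and -0.22 against 8 to 10 residues. Of the traits, the spleen unmutated percent turned to 0.499 and the mutation number to -0.0054 with no removal. With at least 2 counts they turned to 4.81 and -0.231, spleen IgD to 0.153, LG IgE to -0.0018 and, between groups, spleen IGHJ2 to -0.232 points. The causes were not tested.

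Leaving out each mouse gave 1.41 to 2.68 points for the LG clonotype share of NOD-FMT minus PBS-T, 2.61 to 7.30 for LG counts, -0.642 to -0.101 for spleen clonotypes and -0.257 to 0.946 for spleen counts. LG minus spleen ranged from -0.329 to 0.303 for clonotypes and from -1.17 to 0.636 for counts. PBS-T minus NC ranged from -0.098 to 3.96 for LG counts, from -0.352 to 0.485 for spleen clonotypes and from -3.0 to 0.498 for spleen counts, and NOD-FMT minus NC from -0.717 to 0.183 for spleen clonotypes and from -2.74 to 0.759 for spleen counts. The restricted difference ranged from 21 to 64.

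NOD-FMT and PBS-T mice share replicate numbers. Same-numbered mice did not deviate together in the LG (mean r = -0.082, with 2 of 9 pairs over 0.1) and only in part in the spleen (0.144, 5 of 9). Whether the number marks anything shared is not given in the sources used here, and so few pairs cannot settle it. With the replicate number as a block, the LG differences were 2.43 points of clonotypes (exact permutation p = 0.0195, adjusted p = 0.0781) and 4.38 of counts, and the spleen differences -0.33 and 0.169. Without the mouse as a block, LG minus spleen kept its values of 0.089 and 0.083 points (permutation p = 0.888 and 0.964).

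LG libraries held few short clonotypes, 37 to 852, so that a percent of them moves in steps of up to a few points, and rare V genes there rest on single clonotypes.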

Other observations

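Among spleen clonotypes with high mean shares of counts, chosen after their values were seen, IGHV14-4 IGHJ3 YFAY reached 1.74% of the counts of a spleen with 9366 counts in 2 mice, 85.2% of them IgM. IGHV1-80 IGHJ3 ARGAY was found in 16 spleens with 15403 counts in 21 nucleotide forms, 68.1% of them IgM and 31.7% IgG, and reached 2.19%. Its HCDR3 residues are those of IGHV1-26 IGHJ3 ARGAY, which occurred in all 24 spleens with 135 counts. IGHV14-4 IGHJ2 TTLRY was found in 11 spleens with 27 forms, 99.2% IgM, and IGHV1-54 IGHJ2 ARWLNY in 1 spleen with 4857 counts, 97.8% IgA.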
